A study of Mus musculus with 2 samples.

Results

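The genes described here are 41 mouse genes of the unfolded protein response and the heat shock response, chosen by symbol from a fixed list, out of 55536 annotated genes. All 41 symbols were found in the tables. By role they are 14 chaperones and folding enzymes of the endoplasmic reticulum (ER), 4 genes of ER-associated degradation, 6 sensors and transcription factors of the unfolded protein response, 4 targets of ATF4 and CHOP, 9 cytosolic chaperones, 3 mitochondrial chaperones and the heat shock factor gene Hsf1. The assay was total RNA-seq after ribosomal RNA depletion, on RNA from the cytosol of bone-marrow-derived macrophages of the C57BL/6J strain. These are primary cells grown from marrow, and they had been given lipid A, the membrane anchor of bacterial lipopolysaccharide, at 100 ng/ml for 75 minutes. There were 2 libraries of this 1 group, biological replicates 1 and 2 by the labels, each made from 1 µg of RNA. Both carry the same donor identifier, so the spread between them may be partly technical, and the labels give no sex or age. Cells without lipid A were not analysed here. Every expression value below is thus a level in the cytosolic fraction of stimulated cells or a ratio of the libraries. None is a response to lipid A. The sample description calls this fraction cytoplasmic, and how much of each mRNA, including mRNA at the ER, was left out of it was not measured.

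Proteins that enter the secretory pathway are folded in the ER by chaperones and disulfide isomerases, and those that fail are sent back to the cytosol for degradation. When unfolded protein builds up there, the sensors IRE1, PERK and ATF6 raise the output of ER chaperones through XBP1 and cleaved ATF6, and slow translation while favouring ATF4. The heat shock response does the same work for the cytosol: HSF1, normally held inactive, turns on genes for Hsp70, Hsp40 and other chaperones when proteins unfold. Macrophages stimulated through the lipopolysaccharide receptor secrete large amounts of protein, and parts of the unfolded protein response are known to be engaged in them.

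The estimated counts summed to 50157146 in replicate 2 and 55596625 in replicate 1 over annotated genes. All 10 macrophage markers were at 1 TPM or more (TPM, the deposited estimate of transcript abundance, is scaled for length and depth), led by Lyz2 at 4111 and 4227 TPM, Tyrobp at 639 and 656 TPM, and Cd68 at 659 and 534 TPM in replicates 2 and 1. The other cell types had low values: 4 of 10 neutrophil markers, 1 of 6 dendritic cell markers, 0 of 8 lymphocyte markers and 0 of 6 stromal or endothelial markers were at 1 TPM or more, with summed levels of 35.8 and 33.0, 2.48 and 1.59, 0.24 and 0.05, and 0.43 and 0.26 TPM in replicates 2 and 1. The libraries differed in nuclear RNA. Malat1, a long RNA retained in the nucleus, was at 799 TPM in replicate 2 and 158 TPM in replicate 1, and Neat1, another, at 64.6 and 14.8 TPM. In such bulk RNA, fewer cells of a type and less RNA per cell cannot be told apart.

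At a mean of 1 TPM or more, 39 of the 41 genes were detected, against 39.3% of protein-coding genes. Of these, 6 reached 100 TPM, 20 lay between 10 and 100 TPM and 13 between 1 and 10 TPM. Over all 41 the median level came to 21.6 TPM in replicate 2, against 19.6 TPM in replicate 1, and together they made up 0.969% and 0.959% of the TPM of nuclear-encoded protein-coding genes. The ATF4 targets Trib3 and Chac1 were below 1 TPM. In the second quantification, where the members' median was 8.61 TPM, 37 genes reached 1 TPM, and Asns (0.644 and 0.745 TPM in replicates 2 and 1) and Eif2ak3 (0.679 and 0.687 TPM) were also below it.

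**Figure D1:**
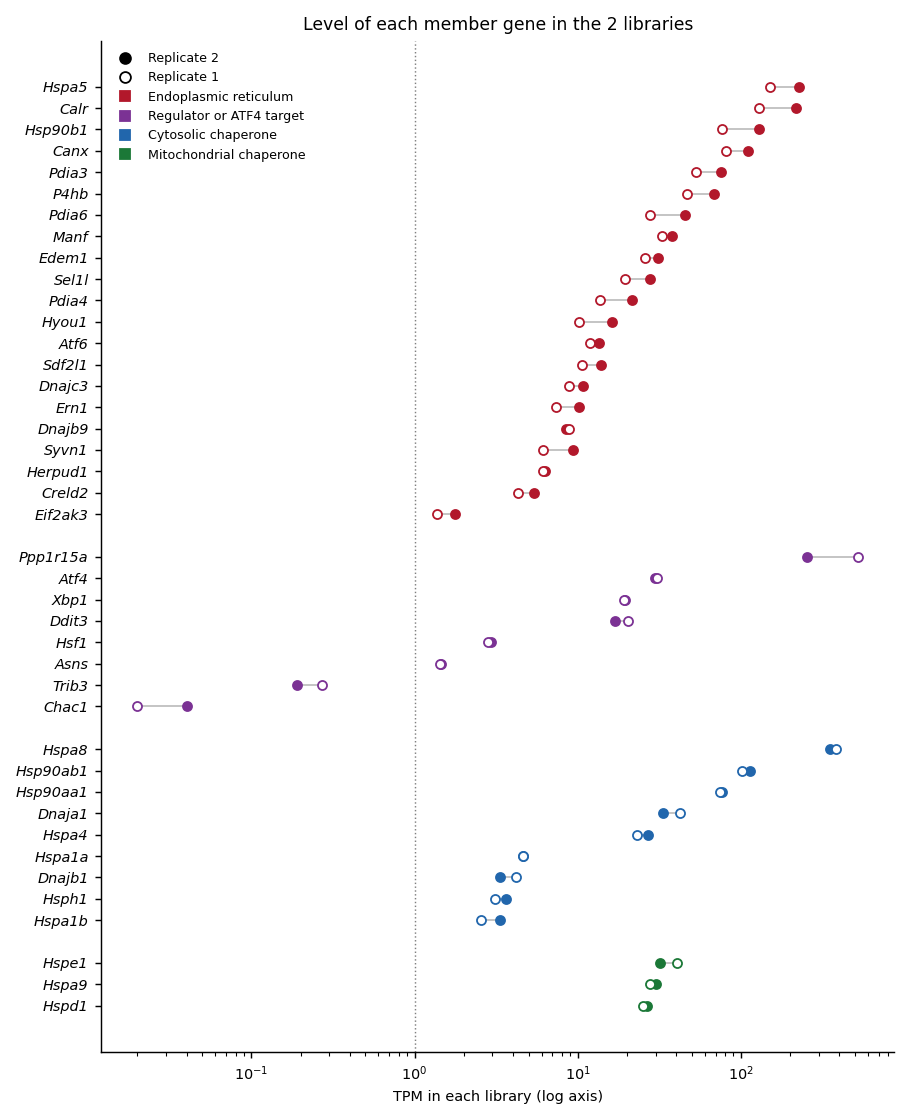
TPM of each of the 41 genes (log axis) in replicate 2 (filled) and replicate 1 (open), grouped by where the protein works or as a regulator or ATF4 target; the dotted line marks 1 TPM. Ppp1r15a and Hspa8 lead, the filled point lies to the right in every ER gene but Dnajb9, and Trib3 and Chac1 lie below the line.

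The ER chaperones and folding enzymes held 3 of the 6 members at 100 TPM or more. Hspa5, the ER Hsp70 known as BiP, had 227 TPM in replicate 2 and 151 TPM in replicate 1 (189 ± 53.7 TPM, mean ± SD, n = 2). Calr, encoding the lectin chaperone calreticulin, was at 217 and 129.6 TPM (173 ± 61.8 TPM, SD, n = 2), and its membrane-bound relative Canx, calnexin, at 110.4 and 81.4 TPM. Hsp90b1, the ER Hsp90, was at 130.1 and 76.9 TPM (103 ± 37.6 TPM, SD, n = 2). In all 4 the higher value was in replicate 2. The SD was 21.4% to 36.3% of the mean.

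The disulfide isomerases came next. In replicates 2 and 1, Pdia3 was at 75.6 and 53.0 TPM, P4hb at 68.1 and 47.0 TPM, Pdia6 at 45.3 and 27.7 TPM, and Pdia4 at 21.6 and 13.8 TPM. Hyou1, a large Hsp70-like chaperone of the ER, was at 16.2 and 10.2 TPM, and Sdf2l1, a partner of BiP and its J proteins, at 13.9 and 10.6 TPM. Manf, an ER-resident secreted factor, was at 38.0 and 32.8 TPM, and Creld2, another small ER protein induced by stress, at 5.36 and 4.29 TPM. The BiP co-chaperones Dnajc3 and Dnajb9 were at 10.8 and 8.85 TPM and at 8.43 and 8.89 TPM. Dnajb9 was the only 1 of the 14 with a lower value in replicate 2.

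Among the genes of ER-associated degradation, Edem1, which recognises trimmed mannose on misfolded glycoproteins, was at 30.9 TPM in replicate 2 and 25.98 TPM in replicate 1. Sel1l, the adaptor of the HRD1 ubiquitin ligase, was at 27.9 and 19.6 TPM, and the ligase gene itself, Syvn1, at 9.40 and 6.14 TPM. Herpud1, a scaffold of the same complex, was at 6.31 and 6.13 TPM.

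The sensors were present at lower levels. Atf6, which is cut in the Golgi to release a transcription factor, was at 13.5 TPM in replicate 2 and 11.97 TPM in replicate 1. Ern1, encoding IRE1, was at 10.1 and 7.40 TPM, and Eif2ak3, encoding the kinase PERK, at 1.78 and 1.38 TPM, the lowest of the ER genes. Their transcription factors were more abundant and close in both libraries: Atf4 was at 29.8 and 30.4 TPM and Xbp1 at 19.6 and 19.3 TPM. Ddit3, which encodes the ATF4-induced factor CHOP, was at 17.0 and 20.4 TPM. A second gene identifier also bears the symbol Ddit3 and held 0 and 0.91 counts; the other was used.

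Xbp1 is known for an unusual step: IRE1 cuts 26 bases out of its mRNA in the cytosol, which shifts the reading frame and makes the active factor. The site lies in exon 4 of Xbp1-201, on the + strand of mm10, and is shown because the tables cannot tell its 2 forms apart. The capitals mark the 26 bases, at chr11:5524279-5524304.
Xbp1 (chr11:5524267-5524316, + strand): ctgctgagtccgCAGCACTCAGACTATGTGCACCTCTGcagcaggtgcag
With these bases in place the reading frame of Xbp1-201 has 267 codons, and with them removed it has 371. Of 4 annotated Xbp1 transcripts, 3 hold the 26 bases and 0 have them removed, and Xbp1-201 took 98.9% of the gene's estimated count in replicate 2 and 99.5% in replicate 1. The levels above are thus of Xbp1 mRNA of either form, and how much of it IRE1 had cut is not measured by them.

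The targets of ATF4 and CHOP ranged more widely than any other role. Ppp1r15a, which encodes the phosphatase subunit that restores translation after stress, was at 256 TPM in replicate 2 and 525 TPM in replicate 1 (391 ± 190.5 TPM, SD, n = 2). It was the most abundant of the 41 genes by mean level and ranked 65 among 22028 protein-coding genes. The remaining 3 targets were near or below the detection threshold. Asns, asparagine synthetase, was at 1.46 and 1.43 TPM, Trib3, a pseudokinase that binds ATF4, at 0.19 and 0.27 TPM from 34 and 56 counts, and Chac1, which degrades glutathione, at 0.04 and 0.02 TPM from 6 and 4 counts. A count of 3, taken as the floor, corresponds to 0.02 TPM of Chac1 in replicate 2 and 0.015 TPM in replicate 1.

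Other genes of the ATF4 pathway showed the same spread of levels, with 15 of 20 at 1 TPM or more. Atf3, an immediate-early transcription factor, led at 181 TPM in replicate 2 and 266 TPM in replicate 1, followed by the amino acid transporter subunit gene Slc3a2 at 128 and 93.0 TPM and the stress gene Nupr1 at 34.4 and 45.2 TPM. The 5 below 1 TPM were Vldlr, Slc7a5, Phgdh, Psph and Aldh18a1. Of the other signalling genes, 12 of 13 reached 1 TPM, led by the phosphatase subunit gene Ppp1r15b at 15.1 and 16.9 TPM, the double-stranded RNA kinase gene Eif2ak2 at 11.5 and 12.8 TPM, and the Xbp1 ligase gene Rtcb at 11.2 and 11.2 TPM. Wfs1, at 0.90 and 0.56 TPM, did not.

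Among the cytosolic chaperones, the constitutive Hspa8 and Hsp90ab1 were the most abundant. Hspa1a, Hspa1b, Dnajb1 and Hsph1, known as heat-inducible, were all below 5 TPM. Inducible genes were not all low, as Hsp90aa1 came next after Hsp90ab1. Hspa8, the constitutive Hsp70, was at 350 TPM in replicate 2 and 386 TPM in replicate 1 (368 ± 25.3 TPM, SD, n = 2) and ranked 68 among protein-coding genes. Hsp90ab1, the constitutive Hsp90, was at 113.5 and 102 TPM (108 ± 7.99 TPM, SD, n = 2), and the more inducible Hsp90aa1 at 77.0 and 74.7 TPM. Hspa4, an exchange factor for Hsp70, was at 26.8 and 22.9 TPM, and its inducible relative Hsph1 at 3.63 and 3.13 TPM. The J proteins Dnaja1 and Dnajb1 were at 33.3 and 42.2 TPM and at 3.36 and 4.21 TPM.

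The stress-inducible Hsp70 genes Hspa1a and Hspa1b were at 4.63 and 4.65 TPM and at 3.35 and 2.57 TPM in replicates 2 and 1. Both have a transcript of 1 exon and lie on the same strand of chromosome 17 with 9951 bases between them, Hspa1b at chr17:34956436-34959238 and Hspa1a at chr17:34969190-34972156. Their transcripts, 2803 and 2967 bases long, are identical at 90.7% of 2771 aligned bases, and 47.1% of all 100-base windows of Hspa1a occur in Hspa1b. The division of reads between them is therefore uncertain. The authors' posterior SD was small, at 1.498% and 1.26% of the count for Hspa1a and 2.19% and 2.40% for Hspa1b. It was below 1% for each of the other 39 genes. In TPM, Hspa1a was at 1.38 times Hspa1b in replicate 2 and 1.81 times in replicate 1. Hsf1 itself was at 2.94 and 2.83 TPM. Of other heat shock factor genes, the HSF1-binding protein gene Hsbp1 was at 39.3 and 44.7 TPM, Hsf2 at 2.27 and 2.25 TPM, and Hsf5 was listed at 0 TPM in both, with 1 and 0 counts.

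The mitochondrial chaperones lay close together. Hspe1, the small chaperonin subunit, was at 32.1 TPM in replicate 2 and 40.6 TPM in replicate 1, Hspa9, the mitochondrial Hsp70, at 30.3 and 27.8 TPM, and Hspd1, the large chaperonin subunit, at 26.6 and 25.2 TPM. The neighbours Hspd1 and Hspe1 are transcribed in opposite directions and overlap by 112 bases on chromosome 1. Manf, Dnaja1, Ddit3 and Syvn1 each overlap a protein-coding gene with counts on the opposite strand, Dcaf1, Smu1, Mars and Mrpl49. Pdia3 and Ppp1r15a overlap Catsper2 and Tulp2 in the same way, with 14 and 15 and with 18 and 3 counts in replicates 2 and 1. Manf also overlaps Rbm15b, on its own strand, with 1271 and 1433 counts. Which strand was counted is not given in the sources, so the division of reads in these overlaps is uncertain.

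Promoter sequence, 250 bases before to 50 after the start, was found in RefSeq (GRCm38.p6) for 33 of the 41 genes. The ER stress element (ERSE: CCAAT, 9 bases of any kind, CCACG, either strand) is known as the sequence through which ATF6 and XBP1 act and was described in promoters of genes of this kind, so its presence is a description of the list. It was found in 8 of 33 members with a promoter, against 0.119% of all 32851 promoters. All 8 were among the 18 ER genes with a promoter, and none of the 6 cytosolic chaperones with a promoter held it. Members count here and below as genes with a match in any of their 38 promoters, whereas the shares are of single promoters. The median GC content was 63.8% in member promoters and 52.7% in all promoters, and the shares are not adjusted for it. ERSE-II (ATTGG, 1 base, CCACG) was found in Herpud1 alone, against 0.0365% of all promoters. The matches are shown because they are the sequence that most of the abundant ER chaperones share; the capitals mark the CCAAT and CCACG parts of ERSE and the whole of ERSE-II.
Hspa5 (chr2:34772017-34772051, + strand): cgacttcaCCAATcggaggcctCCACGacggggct
Hsp90b1, nearer match (chr10:86705525-86705559, + strand): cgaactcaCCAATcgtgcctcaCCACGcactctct
Hsp90b1, farther match (chr10:86705630-86705664, - strand): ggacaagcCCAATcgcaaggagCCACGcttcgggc
Calr (chr8:84847067-84847101, + strand): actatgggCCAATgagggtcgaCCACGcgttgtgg
Canx (chr11:50325792-50325826, - strand): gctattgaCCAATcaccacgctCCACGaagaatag
Pdia6 (chr12:17266483-17266517, + strand): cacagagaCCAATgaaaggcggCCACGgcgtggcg
Dnajc3 (chr14:118937819-118937853, + strand): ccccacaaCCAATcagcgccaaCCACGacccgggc
Creld2 (chr15:88819512-88819546, - strand): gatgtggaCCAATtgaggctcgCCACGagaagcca
Syvn1 (chr19:6046524-6046558, + strand): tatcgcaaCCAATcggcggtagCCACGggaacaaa
Herpud1, ERSE-II (chr8:94386369-94386395, + strand): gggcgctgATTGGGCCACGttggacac
All 10 matches lay before the start. The last base of the match was 25 bases from it in Syvn1, 46 in Hspa5 and 193 in the farther match of Hsp90b1, the greatest distance.

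The C/EBP-ATF element (TGATG, 1 base, AA, either strand), which ATF4 is known to bind, was found in the promoters of Asns, Chac1, Herpud1 and Trib3, against 3.97% of all promoters. Heat shock element pairs (TTCNNGAA or GAANNTTC) are parts of the longer elements that HSF1 binds, so a single pair is a loose match. They were found in 8 of 33 members, counted as genes, against 15.1% of all promoters. The 8 were Hspa1a, Hspa1b, Dnaja1, Hsph1, Hspd1, Hspe1, Asns and Eif2ak3, and in Asns the pair overlaps the C/EBP-ATF element. The matches in Trib3 and some of those in Hsph1 lay after the start. The ones below are shown because they belong to the gene pairs just described and to the ATF4 targets; the capitals mark the bases of the element.
Hspa1a (chr17:34972245-34972268, - strand): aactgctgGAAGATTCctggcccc
Hspa1b (chr17:34959327-34959350, - strand): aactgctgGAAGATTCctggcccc
Hspe1 (chr1:55088051-55088084, + strand): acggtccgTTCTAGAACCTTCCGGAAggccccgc
Hspd1 (chr1:55088051-55088084, - strand): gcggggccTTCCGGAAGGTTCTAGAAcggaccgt
Asns, C/EBP-ATF element (chr6:7693217-7693240, - strand): cagccacaTGATGAAActtcccgc
Chac1, C/EBP-ATF element (chr2:119351041-119351064, - strand): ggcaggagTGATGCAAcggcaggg
Hspa1a and Hspa1b share the window letter for letter, and 98.8% of the 250 bases before their starts are identical. Hspd1 and Hspe1 share 1 run of overlapping pairs between their starts, read from opposite strands. A match is a description of letters, and none of these values says whether a factor was bound.

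**Figure D2:**
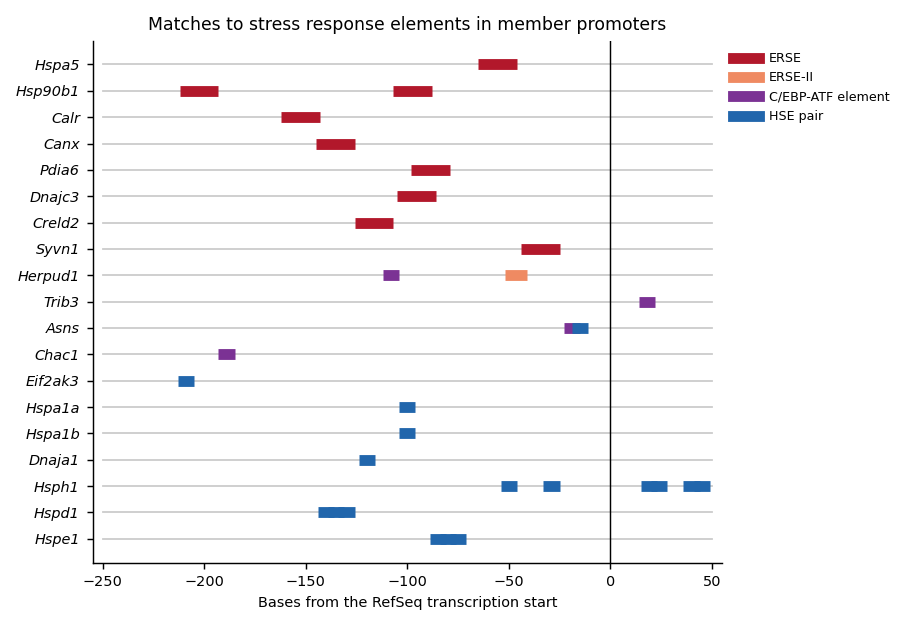
Position of matches to ERSE, ERSE-II, the C/EBP-ATF element and heat shock element (HSE) pairs, in bases from the RefSeq transcription start, in the 19 member promoters that hold any; matches from all starts of a gene are drawn on its line, so the pairs of Hsph1, which has more than 1 start, appear more than once. ERSE matches lie between 212 and 26 bases before the start.

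The ratio of replicate 2 to replicate 1 was taken from TMM-scaled estimated counts for the 40 genes with a mean of 10 counts or more. With 1 library a side it has no test, and the 95% Clopper-Pearson intervals given here cover counting error only. Of the 40, 6 were past 1.5-fold, against 3.50% of protein-coding genes with a mean of 100 counts or more. These were 5 ER genes higher in replicate 2, against 2.33% of protein-coding genes past 1.5-fold in that direction, and Ppp1r15a lower in replicate 2, against 1.17%.

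The ER genes, here with the sensors Atf6, Ern1 and Eif2ak3, were higher in replicate 2 almost throughout. The ratio was above 1 in 19 of 21, against 44.9% of protein-coding genes with a mean of 100 counts or more, with a median log2 ratio of 0.38 (1.30-fold), against -0.03 over the same genes. Calr was 1.60-fold higher in replicate 2 (95% interval 1.58 to 1.63), Hsp90b1 1.60-fold (1.57 to 1.62), Pdia6 1.57-fold (1.52 to 1.63), Hyou1 1.53-fold (1.47 to 1.59) and Pdia4 1.51-fold (1.44 to 1.58). Syvn1, at 1.497-fold (1.41 to 1.59), and Hspa5, at 1.45-fold (1.43 to 1.47), lay just below the threshold. The 2 ER genes with a ratio below 1 were Dnajb9, with a log2 ratio of -0.13, and Herpud1, with -0.07. In the second quantification, 3 members were past 1.5-fold in place of 6: Calr with a log2 ratio of 0.61, Ppp1r15a with -1.12 and Trib3 with -0.64, while Hsp90b1 had 0.58, Pdia6 0.57, Hyou1 0.53 and Pdia4 0.50, and 19 of 21 ER genes were again above 1.

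The 9 ER genes with ERSE or ERSE-II in their promoter had log2 ratios from -0.07 to 0.68 with a median of 0.53, and the other 9 with a promoter from -0.13 to 0.59 with a median of 0.34. These ranges overlap, and the part of the element in the ratios was not tested. The 3 ER genes without a promoter entry, Hyou1, Manf and Atf6, had log2 ratios from 0.12 to 0.61. Among 17 other ER folding and quality control genes, 15 were higher in replicate 2, with a median log2 ratio of 0.21 and none past 1.5-fold. The 3 most abundant were the prolyl isomerase gene Ppib, with a log2 ratio of 0.21, Erp29 with 0.13 and Selenok with -0.29; Pdia5, at 0.53 and 0.36 TPM, was the 1 below 1 TPM. Of the other genes of ER-associated degradation, 9 of 16 measured were higher in replicate 2, against the same 44.9%, with a median of 0.05. Its 3 most abundant were Aup1 with -0.03, the segregase gene Vcp with 0.20 and the lectin gene Os9 with 0.52, and Derl3 was listed at 0 TPM.

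Other RNAs differed in the same direction. The macrophage markers had a median log2 ratio of 0.32, with 8 of 10 higher in replicate 2. The 5 measured nuclear RNAs had a median of 2.17, with all 5 higher. Markers of other cell types, most below 1 TPM, were also mostly higher in replicate 2: the median log2 ratio was 0.91 over 8 measured neutrophil markers (6 higher, 5 past 1.5-fold), 0.82 over 5 dendritic cell markers (4 higher, 3 past 1.5-fold) and 0.48 over 3 stromal or endothelial markers (3 higher). Their part in the ratio of the ER genes was not tested.

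The other regulators, without the ER sensors, and the ATF4 targets went the other way. None of the 7 measured had a ratio above 1, where 55.1% of protein-coding genes had a ratio below 1. The median log2 ratio of the 7 was -0.27. The sensors Ern1, Eif2ak3 and Atf6, counted as ER genes, had log2 ratios of 0.31, 0.31 and 0.12. Over all 6 sensors and transcription factors, 3 were higher and 3 lower in replicate 2, with a median of 0.03. Ppp1r15a, with 35772 counts in replicate 2 and 82778 in replicate 1, was 2.02-fold lower in replicate 2, a log2 ratio of -1.02 (95% interval -1.03 to -0.998). Ddit3 had a log2 ratio of -0.32 (-0.44 to -0.21), from 1078 and 1542 counts, Atf4 -0.08 (-0.14 to -0.02) and Xbp1 -0.05 (-0.11 to 0.02). Trib3, Asns and Hsf1 had -0.52, -0.27 and -0.01, with intervals that include a ratio of 1 for Trib3 and Hsf1. Asns, Xbp1 and Hsf1 had slightly higher TPM in replicate 2 although their scaled counts were lower, and on rescaled TPM 3 of the 7 were above 1. Among the other ATF4 pathway genes, 13 of 19 were lower in replicate 2, against the same 55.1%, with a median of -0.09. The log2 ratio was -0.61 for Atf3, 0.40 for Slc3a2 and -0.42 for Nupr1. The other signalling genes had a median of -0.04.

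The cytosolic and mitochondrial chaperones differed less between the libraries. The 9 cytosolic chaperones had a median log2 ratio of -0.05, with 4 higher in replicate 2, a sign that turns on rescaled TPM (0.027). Hspa1b had the highest, 0.33 (0.19 to 0.47), and Dnajb1 the lowest, -0.38 (-0.50 to -0.26). The ratio of Hspa1b also rests on the uncertain division of reads with Hspa1a. Hspa4, Hsph1 and Hsp90ab1 had 0.17, 0.10 and 0.09, and Hsp90aa1, Hspa1a, Hspa8 and Dnaja1 had -0.05, -0.06, -0.18 and -0.30. Among 28 other cytosolic chaperones and co-chaperones, 23 were at 1 TPM or more. Of 26 measured, 9 were higher in replicate 2, against the same 44.9%, with a median of -0.10. Led by the Hsp90 co-chaperone gene Ahsa1 at 46.0 and 49.6 TPM, Dnajb6 at 40.6 and 45.8 TPM and Bag1 at 28.7 and 31.0 TPM, they included Hspb1, Hspb8, Dnaja4, Bag2 and Fkbp5 below 1 TPM. The 8 subunits of the cytosolic chaperonin TRiC were all detected at means of 15.4 to 25.5 TPM, led by Cct2, Tcp1 and Cct6a, with a median log2 ratio of 0.00. Hspe1 had a log2 ratio of -0.39 (-0.48 to -0.30), Hspa9 0.07 and Hspd1 -0.00 (-0.06 to 0.05). The intervals of the chaperonin partners Hspe1 and Hspd1 cover counting error only, and whether their ratios differ was not tested. These neighbours also overlap by 112 bases, with the counted strand not given. The 10 other mitochondrial chaperones and proteases, led by Htra2, Hscb and Trap1, had a median of -0.00.

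**Figure D3:**
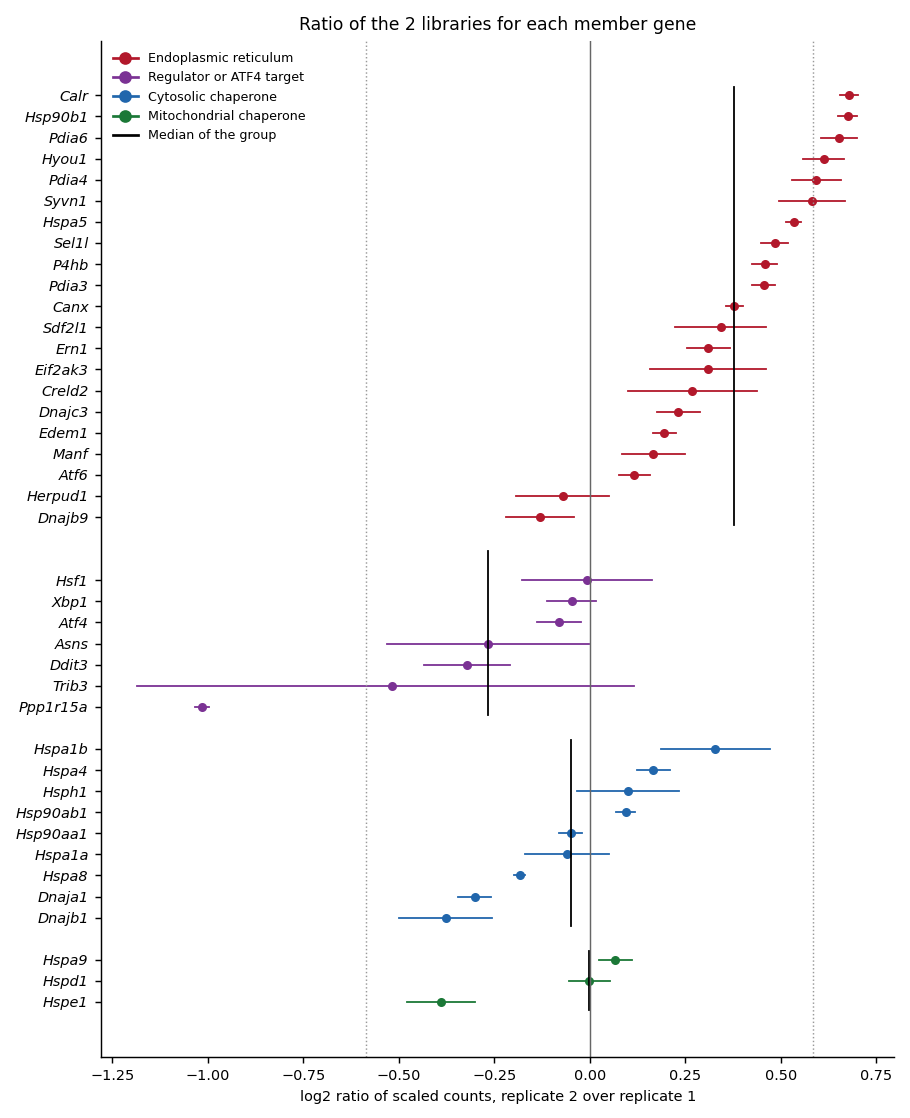
Log2 ratio of TMM-scaled estimated counts, replicate 2 over replicate 1, for the 40 genes with a mean of 10 counts or more; bars are 95% counting intervals, black lines group medians and dotted lines 1.5-fold. ER genes, here with the sensors Atf6, Ern1 and Eif2ak3, lie mostly to the right of 0. Other regulators and ATF4 targets lie to the left, and Ppp1r15a stands farthest out at -1.02.

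**Figure D4:**
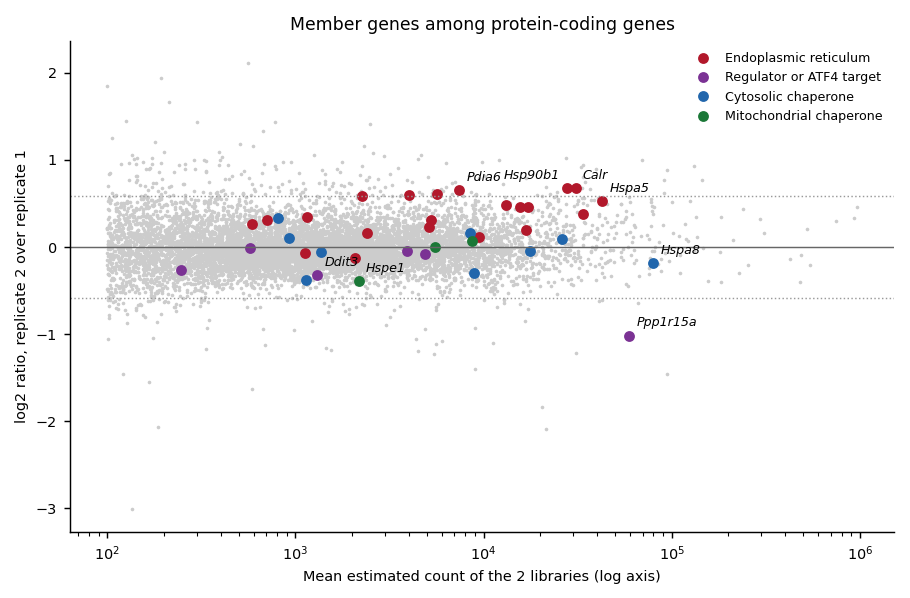
Log2 ratio of replicate 2 over replicate 1 against the mean estimated count (log axis) for 9699 protein-coding genes with a mean of 100 counts or more (grey) and the 39 members among them (coloured); dotted lines mark 1.5-fold. 6 members lie outside the lines: Calr, Hsp90b1, Pdia6, Hyou1 and Pdia4 above and Ppp1r15a below.

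A single transcript held most of the count of most genes. The leading transcript took 80% or more of the gene's estimated count in 35 of 41, and 39 had the same leading transcript in both quantifications. The 6 others were Manf, Hyou1, Hspa8, Hsf1, Hsp90aa1 and Syvn1. Hsp90aa1-202 held 64.2% and 69.3% of its gene in replicates 2 and 1 in the first quantification but 22.8% and 22.9% in the second, where Hsp90aa1-201 held 76.1% and 75.4%. For Syvn1 the leading transcripts were Syvn1-201 in the first and Syvn1-204 in the second. Gene counts differed less than these shares: with each quantification scaled to its total over nuclear-encoded protein-coding genes, the ratio of the second to the first was within 1.5-fold in all 41 genes, from 0.961 to 1.12 in those with a mean of 10 counts or more. On the deposited TPM scale, levels were lower in the second, with a median of 8.61 TPM over the members in place of 19.5 TPM. For Ppp1r15a, Ppp1r15a-201 held 94.2% and 94.7%, and the short Ppp1r15a-203, of 389 bases, 4.24% and 4.90%.

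Transcripts that retain an intron were annotated for 26 members, and 21 had a mean of 5 counts or more in them. Their share of the gene's count was higher in replicate 2 in 20 of the 21, against 81.8% of all genes measured in the same way, and the median share was 1.18% in replicate 2 and 0.326% in replicate 1, against 2.45% and 1.05% over all genes. Manf had the highest share, 15.4% and 14.7%, followed by Calr, 9.06% and 8.54%, mostly in the short transcript Calr-204. Among the regulators, Hsf1 had 7.14% and 2.09%, Atf4 3.43% and 0.952%, Ddit3 1.77% and 0.326%, and Xbp1 0.498% and 0.119%. Hsp90b1, with 0.381% and 0.426%, was the exception. Of the 5 ER genes past 1.5-fold, Pdia6 had 0.591% and 0.253%, Hyou1 0.413% and 0.243%, and Pdia4 no such transcript annotated; Syvn1 had 1.88% and 1.08%, and Hspa5 0.0305% and 0.0118%. In the second quantification the share was higher in replicate 2 in 17 of 22 members measured, and Calr had 13.4% and 14.3%. The share over all genes was not computed there. The part of the intron-retaining transcripts and of the nuclear RNAs in the ratios was not tested.

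**Figure D5:**
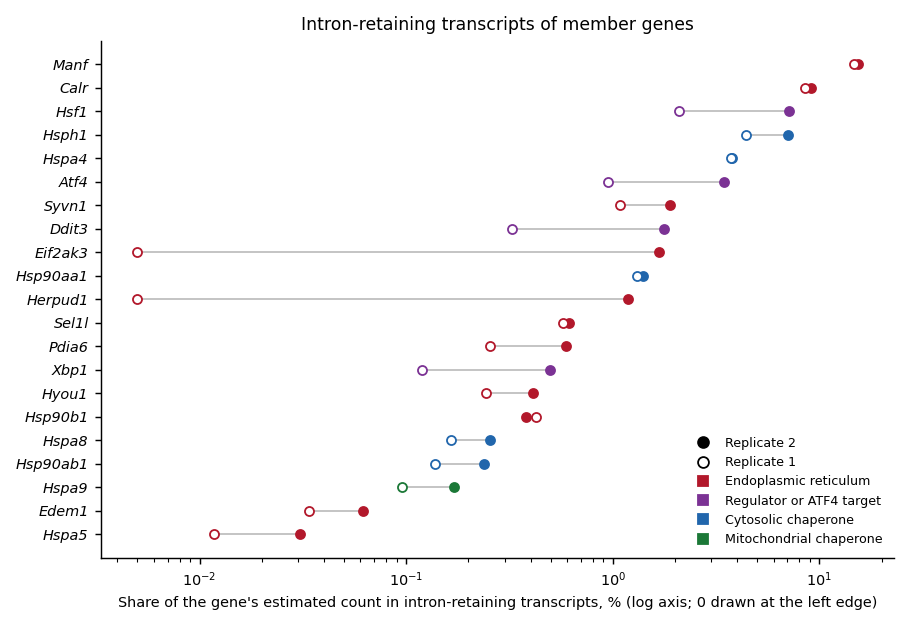
Share of each gene's estimated count in transcripts annotated as retaining an intron (%, log axis) in replicate 2 (filled) and replicate 1 (open) for the 21 genes measured; a share of 0, as for Eif2ak3 and Herpud1 in replicate 1, is drawn at the left edge. In the first quantification, shown here, the filled point is to the right in 20 of 21 genes, Hsp90b1 being the exception.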

How the data were processed

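Expected counts per gene and transcript of the first quantification, and estimated counts per transcript of the second, are the authors' estimates of fragments, not normalized and not always whole, per the file headers. The deposited TPM values are scaled by the authors for length and to a fixed sum per table. The posterior SD of the count is another deposited column. Per the deposited readme text, build mm10 and annotation M21 were used; the first quantification came from transcriptome alignments and the second from the reads. No aligner, quantifier or strand of counting is named: not given in the sources used here.

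Members were matched by symbol, and the members and lists were chosen with earlier results of these data known. Levels are TPM of the first gene table. Ratios used counts rounded to whole numbers, scaled by TMM (edgeR 4.0.16, R 4.3.3) over genes with a mean of 10 counts, with 0.5 added. The scaling was tested on simulated counts with known, balanced changes in 200 genes. The simulated counts held no spread between replicates beyond counting error and no shift in nuclear RNA, so that test does not cover these. DESeq2 1.42.0 gave alternative size factors. Spike-in and numbered entries were left out. With 1 group there was no test. Intervals and floors (3 counts) take in counting error alone, as fragments are not independent molecules. Values were summed per gene in the second quantification; comparison of quantifications scaled each to nuclear-encoded protein-coding genes. Gene models are GENCODE M21; promoters are RefSeq, with 32851 of one length searched on both strands. No promoter entry was used for Manf, Hspa8, Hsf1, Hsp90aa1, Hyou1, Hspa9, Hsp90ab1 and Atf6. All 41 members are named; of each other list, the 3 genes of highest mean TPM and, where 5 or fewer, those below 1 TPM. Python 3.11.15, pandas 2.3.3, numpy 2.4.6, scipy 1.17.1, biopython 1.88 and matplotlib 3.10.9 were used.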

Additional observations from a re-analysis of the deposited data

How the results depend on the processing

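The median level of the 41 genes was 19.5 TPM (mean of the libraries); it was 89.7 TPM rescaled over nuclear-encoded protein-coding genes, 8.61 TPM in the second quantification, and 19.6 to 21.6 TPM with either replicate left out. The number past 1.5-fold, 6, was 3 in the second quantification, 4 with library totals and 7 with DESeq2 size factors, and 1 gene, Ppp1r15a, was past 2-fold. The median log2 ratio of all members, 0.14, was 0.055 in the second quantification. The ER median, 0.38, was 0.29 in the second quantification and 0.44 on rescaled TPM. The cytosolic median, -0.05, was -0.10 with library totals, -0.13 in the second quantification and 0.027, with the opposite sign, on rescaled TPM. The cause was not tested. These group medians, and counts of intron-retaining shares (17 of 22 in the second quantification and 16 of 17 at a mean of 10 counts), were alternatives chosen after seeing the data. The matching shares over all genes were not computed for those counts. The number detected was 37 to 40 over other scales and quantifications, 39 with either replicate left out, 39 at 0.5 TPM and 31 at 5 TPM. Counts of leading transcripts (31 to 41), of agreement between quantifications (41) and of promoter matches stayed within 1.5 times. A spread for medians of ratios was the median half-width of members' counting intervals. Ratios cannot be had without either replicate. No paired analysis was possible because there is 1 group. Depth limits Chac1 and Trib3, with few counts. For the others the number of libraries, 2, is a limit. For Hspa1a, Hspa1b and the members that overlap other genes, the uncertain division of reads is a further limit.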
